A study of Mus musculus with 2 samples.

Results

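The genes described here are 10 early response transcription factors, Fos, Fosb, Jun, Junb, Jund, Egr1, Atf3, Klf2, Klf4 and Klf6, chosen by name from the 31053 features of the count tables. All 10 were present. They were followed in 2 droplet single-cell RNA libraries of sorted brain microglia, the resident macrophages of the brain, 1 from wild-type (WT) mice and 1 labelled IRF8KO. Both came from female C57BL/6 mice aged 3 months, and each library pooled cells of 3 mice, so there was 1 pool and 1 library per group. Values therefore have no replicate, and genotype could not be tested. The intervals given are 95% intervals for counting error only. The labels do not name the Irf8 allele. Groups follow the sample titles, and since the genotype field under the title IRF8KO says WT, that library is called IRF8KO-labelled. Cells were isolated without enzymes and sorted by flow cytometry, and both groups share these steps.

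Early response genes are transcribed within minutes of a stimulus from factors already present in the cell, without new protein synthesis. Fos and Fosb proteins cannot pair with themselves and bind DNA as AP-1, a dimer with Jun, Junb or Jund. Egr1 is a zinc finger factor of the same first wave, Atf3 is a leucine zipper factor of the stress response, and the Klf proteins are zinc finger factors that bind GC-rich and CACCC sequences. In microglia and macrophages these transcripts are also known to appear while cells are taken out of the tissue, more so with enzymes at warm temperature.

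Fos, Klf2 and Jun are the members on which the results turn, as the member higher, the member lower and a member at nearly the same level in the IRF8KO-labelled library. Their promoters are shown from 250 bases before the RefSeq start (GRCm38.p6), 5′ to 3′ on the gene's strand. The last 29 bases of the Klf2 window lie inside the GENCODE M21 gene and are not printed. Capitals mark a TATA box in Fos, an Egr site followed by a MEF2 match in Klf2, and CACCC boxes on the other strand followed by a MEF2 match in Jun.
Fos (chr12:85473640-85473889, + strand): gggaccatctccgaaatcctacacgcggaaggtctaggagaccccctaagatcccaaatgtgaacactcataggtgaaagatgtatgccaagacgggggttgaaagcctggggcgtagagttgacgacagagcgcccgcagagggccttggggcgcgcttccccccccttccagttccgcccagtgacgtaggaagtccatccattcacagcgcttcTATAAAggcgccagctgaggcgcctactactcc
Klf2 (chr8:72318812-72319032, + strand): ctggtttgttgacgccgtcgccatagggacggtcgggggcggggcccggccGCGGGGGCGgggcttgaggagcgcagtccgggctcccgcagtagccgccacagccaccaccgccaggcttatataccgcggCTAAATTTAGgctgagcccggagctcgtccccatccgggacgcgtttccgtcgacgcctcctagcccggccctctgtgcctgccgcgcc
Jun (chr4:95052223-95052472, - strand): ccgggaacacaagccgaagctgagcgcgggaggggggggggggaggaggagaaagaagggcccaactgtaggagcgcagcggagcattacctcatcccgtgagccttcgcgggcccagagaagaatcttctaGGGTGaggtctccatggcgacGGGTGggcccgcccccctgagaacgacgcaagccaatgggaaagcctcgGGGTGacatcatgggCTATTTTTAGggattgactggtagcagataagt

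RefSeq promoters were found for 9 of the 10 members, all but Egr1, and both strands of the 250 bases were searched. The Fos TATA box, TATAAA, lay at -33 to -28, and that motif was in 12.4% of 32817 promoter windows of the same length. The Egr site, GCGNGGGCG, was in the windows of Fosb, Klf2 and Klf4 and in 4.70% of all windows, and in these 3 genes each such site overlaps a GC box, GGGCGG. The MEF2 match, searched by name, was in the windows of Jun, Klf2 and Atf3 and in 2.92% of all. CACCC was in 52.0% of all windows. The cyclic AMP element TGACGTCA (1.55% of all windows), the AP-1 site TGANTCA (6.75%) and the serum response element, searched by name (1.47%), were in none of the 9 windows. These are matches of letters and not shown binding sites. Only these patterns within 250 bases were searched, so variants of a site and sites further upstream would be missed.

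Kept cells numbered 3304 of 3504 barcodes in WT and 5007 of 5303 in the IRF8KO-labelled library, with 18543061 and 18980263 UMIs, the molecular tags that count captured transcripts. A cell was kept with at least 1000 UMIs, 500 genes and at most 10% mitochondrial UMIs, and with under 2% of UMIs in Camp, Ngp, S100a8, S100a9, Lcn2 and Ltf, a cut that set apart 98 neutrophil-rich cells of the IRF8KO-labelled library and 0 of WT. The median kept cell had 3204.5 UMIs in WT, against 2933. Cells of 7000 UMIs or more were 523 and 366, and they held 51.04% of WT UMIs and 24.1% of the others. The libraries shared 5 barcodes. Of 11 microglia markers, all 11 reached 10 CPM (UMIs scaled to a common library total) in WT and 10 in the IRF8KO-labelled library, where Sall1 was at 2.85 CPM. The marker list took 3.49% of WT UMIs and 1.63% of the others, while 8 border macrophage markers took 0.00141% and 0.264%. Cldn5 of the endothelial list and Cd3d, Cd3e, Cd3g, Trac and Nkg7 of the lymphocyte list were at 0 in both. Other markers of these lists were not silent. The highest endothelial marker was at 52.0 CPM in WT and 19.2 CPM in the IRF8KO-labelled library, and the highest lymphocyte marker at 49.0 and 4.21 CPM. The highest neuron and glia marker was at 34.5 and 40.7 CPM. Irf8 itself stood at 794 CPM in WT and 669 CPM in the IRF8KO-labelled library, and UMIs of a 3′ library do not check a deletion elsewhere in the gene. Irf8 also overlaps Gm20388, another counted gene on the same strand, whose part in these values was not tested.

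Across all kept cells the 10 factors split into a gene that was higher, a gene that was lower and others within 2-fold. Fos was at 2.43 CPM in WT and 11.9 CPM in the IRF8KO-labelled library, and Klf2 was at 41.7 and 9.80 CPM. Klf4 was higher by less than 2-fold, Jund, Atf3 and Junb were lower by less than 2-fold, and the intervals of Jun, Egr1 and Fosb included no difference. Klf6 was slightly lower on UMI totals and slightly higher, at 0.10 on the log2 scale, under TMM scaling. At 2-fold or more, 1 of 10 members (Fos) was higher, against 5.61% of the 8859 genes that reached 10 CPM in either library, and 1 of 10 (Klf2) was lower, against 9.28%. At any size, 3 of 10 were higher, against 25.1%. With equal weight per cell the gene past 2-fold on the higher side was Klf4 in place of Fos, against 5.37%, and Klf2 and Fosb were past it on the lower side, against 8.78%, Fosb on 5 UMIs per library. In cells of 2000 to 5000 UMIs, Fos and Klf4 were 2-fold or more higher (5.73% of genes) and Klf2 lower (9.19%). In cells of 7000 UMIs or more, Fos was 2-fold or more higher (5.6% of genes) and Klf2 lower (9.06%). These are counts of 1 or 2 genes, and over all kept cells the members' median log2 ratio of -0.24 was near the -0.28 of all genes. TMM scaling, which weights down genes that differ most, shifted that of all genes by 0.26 to -0.02 and put Klf4 past 2-fold as well. Fos and Klf4 reached 10 CPM only in the IRF8KO-labelled library and Klf2 only in WT, while Fosb and Egr1 stayed under it in both.

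**Figure D1:**
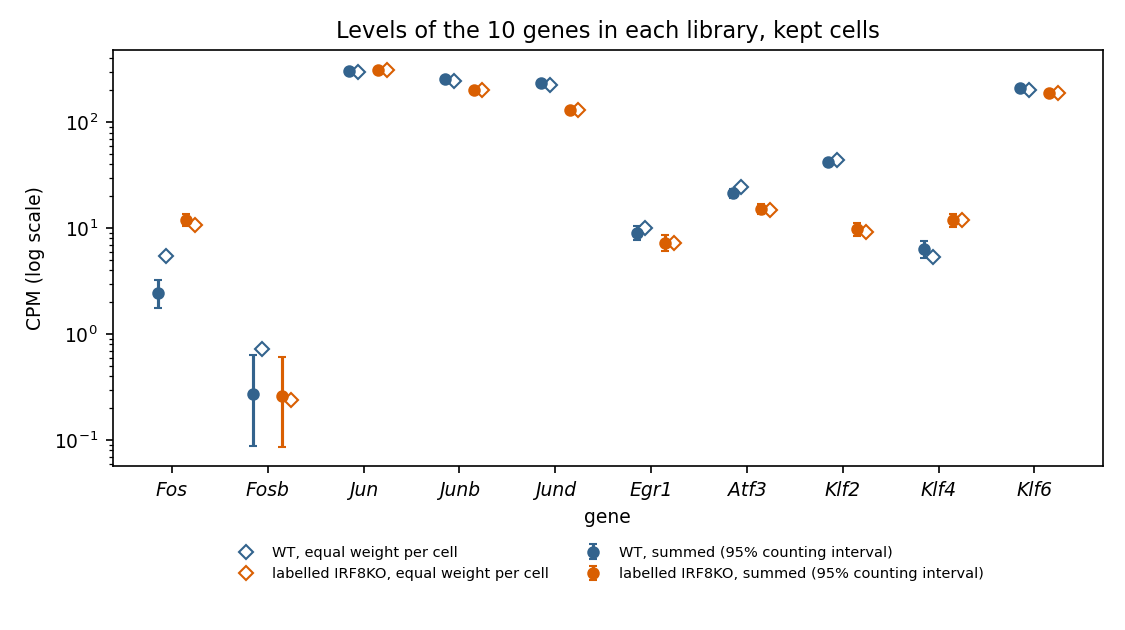
Level of each of the 10 genes (CPM, log scale) in kept cells of the WT library and of the IRF8KO-labelled library. Filled points are UMIs summed over cells with 95% counting intervals and open diamonds give every cell equal weight; the WT diamonds of Fos, at 5.45 against 2.43 CPM, and of Fosb, at 0.719 against 0.270 CPM on 5 UMIs, stand well apart from their points.

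Fos (chr12:85473890-85477273, + strand, GRCm38), the AP-1 partner that most stimuli induce, had 45 UMIs in WT and 226 in the IRF8KO-labelled library. The log2 ratio was 2.29 (1.83 to 2.79) on summed UMIs. With every cell given equal weight the levels were 5.45 and 10.6 CPM, a log2 ratio of 0.96. The size of the difference therefore depended on which cells were weighted. Bulk sums of this kind cannot tell apart more cells with the transcript from more transcript per cell, so Fos was followed cell by cell.

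In WT, Fos sat in very few cells. It was detected in 14 of 3304 cells, 0.424% (exact interval 0.232 to 0.710), and 4 cells with 5 or more UMIs held 31 of the 45. These 4 cells had 10, 10, 6 and 5 Fos UMIs and totals of 1035, 21886, 4005 and 1985 UMIs. The deepest and the cell of 4005 UMIs carried 701 and 148 UMIs of microglia markers. The shallow pair, of 1035 and 1985 UMIs, carried 2 and 0 microglia marker UMIs, but 2 and 8 UMIs of neuronal markers, namely Snap25, Syt1 and, in the latter, Rbfox3. That pair held 15 of the 45 WT Fos UMIs.

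In the IRF8KO-labelled library, Fos was spread thinly over more cells. It was detected in 154 of 5007 cells, 3.08% (2.61 to 3.59), with 1 UMI in 107 of them and at most 6 in any cell. A single one of the 154 cells had under 10 microglia marker UMIs, and it held 1 Fos UMI. Carriers were deeper than other cells, with a median of 4255.5 UMIs against 2912. When every cell of at least 2000 UMIs was thinned to 2000, which leaves out 285 WT and 498 other cells, 5 of 3019 WT cells, 0.166% (0.0538 to 0.386), and 74 of 4509 cells of the IRF8KO-labelled library, 1.64% (1.29 to 2.06), had a Fos UMI. The neutrophil-rich cells, the other class of that library, had a Fos UMI in 8 of 98 cells, 8.16%, at a median of 7057.5 UMIs. No cell class known to lack Fos was present, and the part of free RNA was not tested.

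By depth, the Fos comparison turned over in the shallowest cells. In cells of 1000 to 2000 UMIs, Fos was at 36.5 CPM in WT (17 UMIs) and 5.80 CPM in the IRF8KO-labelled library (5 UMIs), a log2 ratio of -2.65 (-4.45 to -1.16). Without the cells of under 10 microglia marker UMIs, 2 WT and 4 other UMIs remained there, with a log2 ratio of 0.11 (-2.69 to 3.58). In cells of 2000 to 5000 UMIs, Fos was at 2.11 CPM in WT (14 UMIs) and 10.95 CPM in the other (125 UMIs), a log2 ratio of 2.38 (1.58 to 3.29). The WT cell of 4005 UMIs holds 6 of those 14. In cells of 5000 to 7000 UMIs the UMIs were 3 and 29, a log2 ratio of 3.17 (1.48 to 5.53).
In cells of 7000 UMIs or more, Fos was at 1.16 CPM in WT (11 UMIs) and 14.6 CPM in the IRF8KO-labelled library (67 UMIs), a log2 ratio of 3.65 (2.72 to 4.72). Here 10 of the 11 WT UMIs lie in a single cell. Equal weight gave 2.55 in cells of 2000 to 5000 UMIs and 4.19 in the deepest. Every class above 2000 UMIs was thus higher in the IRF8KO-labelled library on both weightings, and the low overall equal-weight ratio came with the shallow WT cells. Without the cells of under 10 microglia marker UMIs (3 WT and 5 others), the overall summed ratio was 2.87 (2.32 to 3.47). Within the IRF8KO-labelled library, the level in the deepest cells over that in cells of 2000 to 5000 UMIs was 0.42 (-0.03 to 0.86) on the log2 scale.

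**Figure D2:**
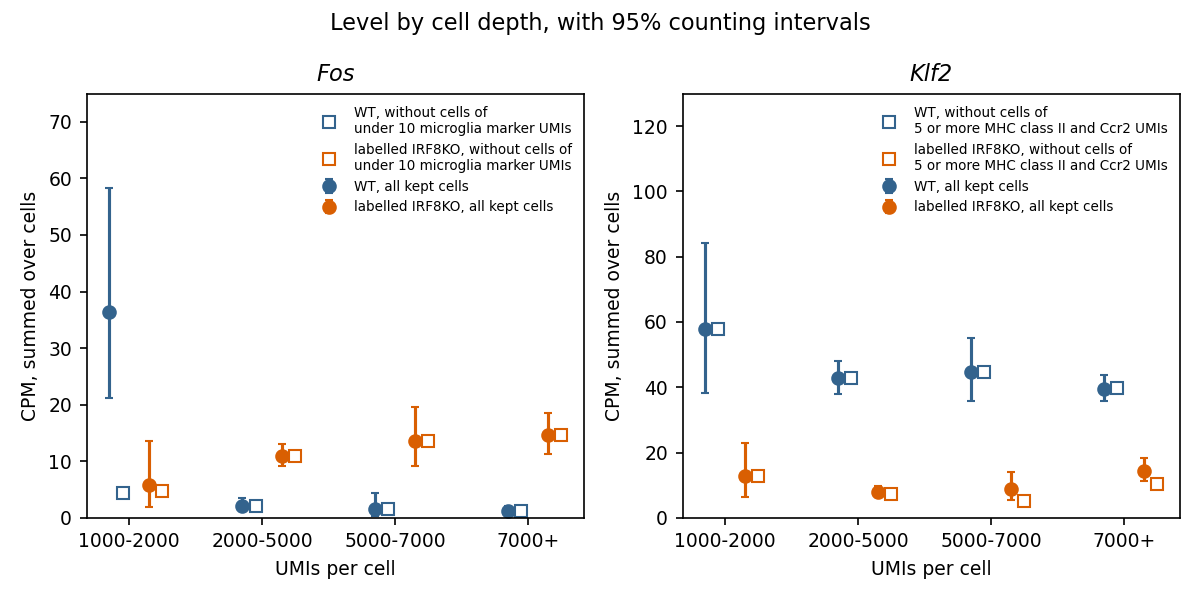
Fos and Klf2 levels (CPM, summed UMIs) in cells of 4 depth classes, for the WT library and the IRF8KO-labelled library, with 95% counting intervals. Open squares leave out cells of under 10 microglia marker UMIs (Fos panel) or of 5 or more MHC class II and Ccr2 UMIs (Klf2 panel); the WT Fos value of the shallowest class goes from 36.5 to 4.32 CPM without such cells, while Klf2 stays lower in the IRF8KO-labelled library in all 4 classes.

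Summed over the IRF8KO-labelled cells with 2 or more Fos UMIs, some other early genes were higher, though the cells with most Fos did not all carry them. Cells with 1 Fos UMI differed little from the rest. In the 58 thinned cells with 1 Fos UMI, the other early response and feedback genes took 0.384% of UMIs, against 0.378% in cells without Fos. Jun was at 379 against 303 CPM there, Junb at 241 against 199 CPM, and Egr1 had 3 UMIs. In the 16 thinned cells with 2 or more Fos UMIs, Egr1 was at 469 CPM against 5.64 CPM in cells without Fos, 83.2-fold (43.4 to 151), on 15 UMIs. These came from few cells. Before thinning, the 3 cells with 5 or more Fos UMIs held 0, 0 and 9 Egr1 UMIs. They held 0, 1 and 7 Jun and 0, 0 and 1 Junb UMIs. A cell with 3 Fos UMIs held 10 Egr1 UMIs. In the 16 thinned cells Jun was at 688 against 303 CPM, 2.27-fold (1.42 to 3.44), and Junb at 531 against 199 CPM, 2.67-fold (1.55 to 4.29). The interval of Jund included no difference, at 1.47-fold (0.537 to 3.20). Klf6 was at 62.5 against 179.9 CPM, on 2 UMIs. Among other genes of at least 50 CPM in the thinned cells, the 8 highest folds belonged to Thbs1, Zfp36, Ier2, Btg2, Cxcl16, March6, Yae1d1 and Pgrmc1. Thbs1, a secreted matrix protein, was at 656 against 71.8 CPM, and Zfp36, which destabilises cytokine mRNAs, at 531 against 87.5 CPM. Ier2 and Btg2, both early response genes, were 5.58-fold (2.54 to 10.7) and 4.96-fold (3.31 to 7.15) higher.
Cxcl2 and Il1b, picked after their values were seen and under that minimum, were 16.2-fold (10.0 to 24.9) and 12.2-fold (5.51 to 23.7) higher in these 16 cells. Their median mitochondrial share of 3.77% was close to the 3.78% of cells without Fos. Microglia markers took 1.34% of UMIs in the 16 cells and 1.65% in cells without Fos, and border macrophage markers 0.303% and 0.254%, and the part of either in these values was not tested. No Klf2 UMI was found in any of the 74 thinned Fos cells, where 3 counts would be 20.3 CPM, so the 9.47 CPM of the cells without Fos could not have been told from 0. In WT only 2 thinned cells had 2 or more Fos UMIs, and the 8 genes of highest fold there, led by Pank3, had 2 or 3 UMIs each and are not described.

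**Figure D3:**
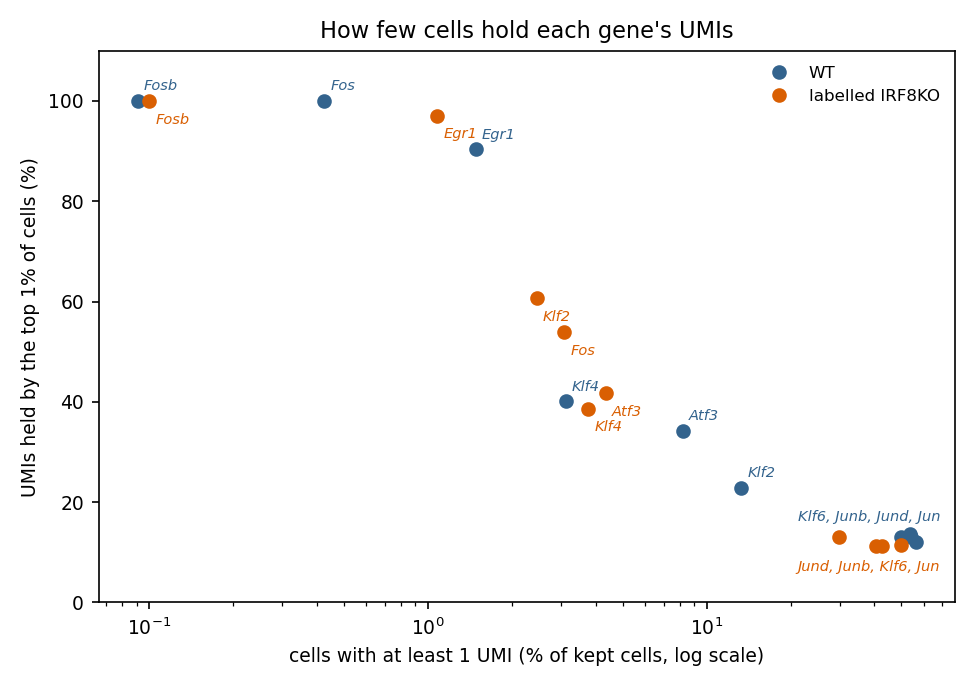
Share of a gene's UMIs held by the 1% of kept cells with most of them (33 WT cells and 50 cells of the IRF8KO-labelled library), against the share of kept cells with at least 1 UMI (log scale). WT Fos lies wholly in the top 1% of cells and Egr1 nearly so in both libraries, Klf2 goes from 22.9% in WT to 60.8% in the IRF8KO-labelled library, and Jun, Junb, Jund and Klf6 are spread over many cells; genes detected in fewer cells are higher on this axis by construction.

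Fosb (chr7:19302696-19310051, - strand), a close relative of Fos, had 5 UMIs in each library, in 3 WT cells and 5 cells of the IRF8KO-labelled library. At 0.270 and 0.263 CPM no difference was detectable at this depth.

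The 3 Jun proteins, which supply the other half-dimer of AP-1, were broadly expressed and differed unequally. Jun (chr4:95049034-95052222, - strand) was at 302 CPM in WT and 308 CPM in the IRF8KO-labelled library, a log2 ratio of 0.03 (-0.03 to 0.08). It reached 0.28 under TMM scaling. Junb (chr8:84974484-84978718, - strand) was at 254 and 202 CPM, a log2 ratio of -0.33 (-0.39 to -0.27), close to the median of all genes. Jund (chr8:70698949-70700616, + strand), the Jun protein known to be present in unstimulated cells, was at 235 and 131 CPM, a log2 ratio of -0.85 (-0.92 to -0.78). Jund was lower under every scaling run, from -0.89 to -0.59 over 14 alternative settings.
Jund was the Jun gene with the lowest share of thinned cells in the IRF8KO-labelled library, 20.2% (19.1 to 21.4) against 36.4% (34.7 to 38.1) in WT. The same shares were 37.2% and 40.0% for Jun, and 28.7% and 35.7% for Junb. Above 2000 UMIs, depth altered these ratios little. Jund was at 228 and 125 CPM in cells of 2000 to 5000 UMIs and at 246 and 144 CPM in cells of 7000 or more, log2 ratios of -0.87 and -0.77. Jun differed by -0.01 and 0.05 in those classes and Junb by -0.32 and -0.35. In cells of 1000 to 2000 UMIs Jun was at 247 CPM in WT cells and 362 CPM in IRF8KO-labelled ones, a log2 ratio of 0.55 (0.24 to 0.87), and Jund at 182 and 134 CPM, a log2 ratio of -0.44 (-0.85 to -0.02). Jun overlaps the antisense gene Junos, Junb overlaps Prdx2 and Jund overlaps the antisense Gm11175, each on the opposite strand. The use of strand in counting is not given in the sources used here, so any part of these partners in the counts was not tested.

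**Figure D4:**
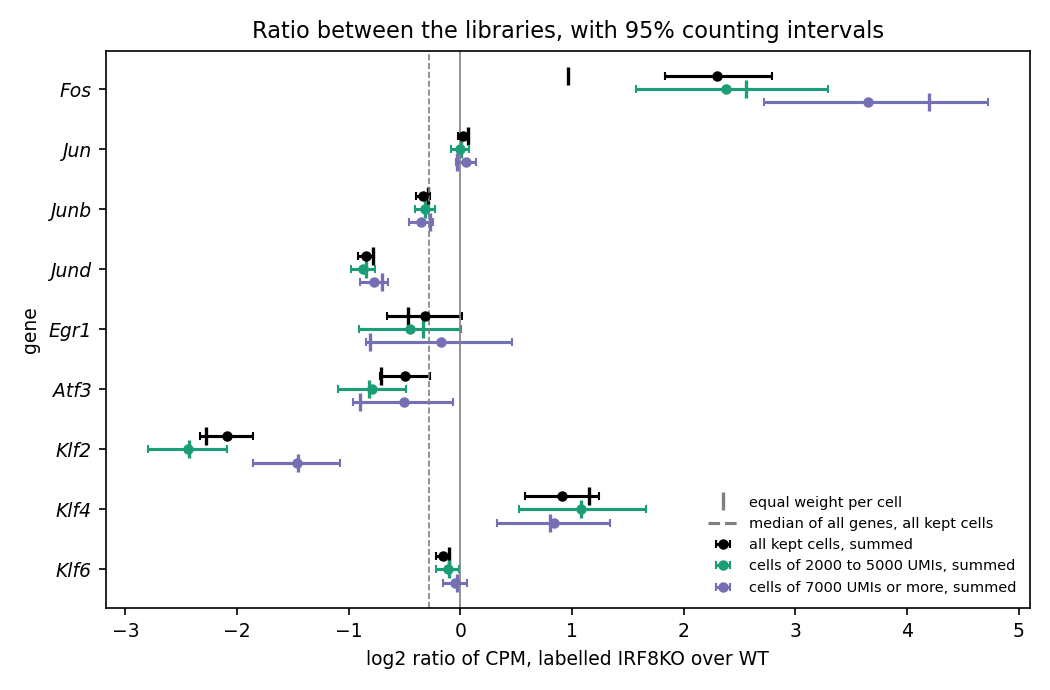
Log2 ratio of CPM, IRF8KO-labelled library over WT, for 9 of the 10 genes (Fosb is left out for its 5 UMIs per library), in all kept cells and in 2 depth classes. Points are summed UMIs with 95% counting intervals, short vertical bars give cells equal weight and the dashed line is the median of all genes at -0.28; Fos lies on the right and Klf2 on the left in all 3 sets, and Jun, Junb and Klf6 stay near the lines.

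Egr1, the zinc finger factor induced with Fos, was at 9.01 CPM in WT (167 UMIs) and 7.22 CPM in the IRF8KO-labelled library (137 UMIs), a log2 ratio of -0.32 (-0.66 to 0.02). It came from few cells in both libraries, 49 WT cells (1.48%) and 54 of the others (1.08%). In WT 7 cells held at least 50% of its UMIs, and in the other library 10 did. Thinned shares were 0.795% (0.510 to 1.18) and 0.688% (0.468 to 0.974). Unlike Fos, its share of cells was thus not distinguishable between the libraries.

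The Egr1 cells carried many other early genes, and these comparisons were added after the data had been seen. In the 11 thinned WT cells with 2 or more Egr1 UMIs, Ccl4, a chemokine of activated microglia, was at 10864 CPM against 46.7 CPM in cells without Egr1. These 11 of 3019 cells held 239 of the 520 thinned Ccl4 UMIs of the library, 46.0%. Ccl3 was at 4318 against 27.2 CPM and Il1b at 591 against 2.34 CPM. Among the members, Atf3 was at 1409 against 19.0 CPM, 74.0-fold (48.1 to 111), and Junb at 1455 against 243 CPM, 5.98-fold (4.08 to 8.49). Klf2, on 7 UMIs, was 7.44-fold (2.96 to 15.6) and Jun 2.89-fold (1.74 to 4.53) higher. The Atf3 and Klf2 values rest largely on few cells. Before thinning, 1 WT cell held 14 Atf3 and 9 Egr1 UMIs, and another held 6 Klf2 and 15 Egr1 UMIs. The WT cell with most Egr1, 17 UMIs, had neither Atf3 nor Klf2.
In the IRF8KO-labelled library, 12 thinned cells had 2 or more Egr1 UMIs. Jun was there at 1333 against 301 CPM, 4.43-fold (3.02 to 6.27), and Junb at 1167 against 197 CPM, 5.92-fold (3.92 to 8.59). Atf3 was 19.3-fold (6.94 to 43.3) and Fos 30.7-fold (11.99 to 66.1) higher. Ccl4 was at 1792 against 38.5 CPM and Ccl3 at 1375 against 37.6 CPM. The highest folds by rule there belonged to Ier2 at 11.9-fold and Btg2 at 10.6-fold. Summed over the cells with 2 or more Egr1 UMIs, both libraries thus had Jun, Junb, Atf3, Ccl3 and Ccl4 above the cells without Egr1. The more numerous cells with 1 Egr1 UMI shared part of this. The 13 such WT cells had 0.0385% of UMIs in the cytokine list, against 0.0336% without Egr1. The 19 of the other library had 0.239% against 0.0342%. Jun was at 654 against 299 CPM in these WT cells and at 684 against 301 CPM in the others. Junb was at 346 against 243 CPM and at 447 against 197 CPM. Atf3 had no UMI in the 13 cells and 1 in the 19, too few to compare. In the cells with 2 or more, the median mitochondrial shares were 2.54% in WT and 4.23% in the IRF8KO-labelled library, against 2.09% and 3.80% in cells without Egr1.

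Atf3 (chr1:191170296-191218039, - strand) was at 21.4 CPM in WT (397 UMIs) and 15.2 CPM in the IRF8KO-labelled library (288 UMIs), a log2 ratio of -0.50 (-0.72 to -0.27). Thinned shares of cells were 3.38% (2.76 to 4.09) and 2.42% (1.99 to 2.91). In WT, Atf3 was higher in cells of 2000 to 5000 UMIs, at 27.4 CPM, than in cells of 7000 or more, at 17.6 CPM. That within-library log2 ratio was -0.64 (-0.95 to -0.32). In the IRF8KO-labelled library the same levels were 15.9 and 12.4 CPM, and the interval of their ratio included no difference. The single cell with most Atf3 held 21 of the WT UMIs and 9 of the others.

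Klf2 (chr8:72319033-72321656, + strand), a zinc finger factor known to restrain inflammatory genes in myeloid and endothelial cells, had 774 UMIs in WT and 186 in the IRF8KO-labelled library. The log2 ratio was -2.09 (-2.33 to -1.86), and -2.28 with equal weight per cell, at 44.3 and 9.16 CPM. Weighting thus mattered less than for Fos. Klf2 was detected in 440 of 3304 WT cells, 13.3%, and in 123 of 5007 cells of the IRF8KO-labelled library, 2.46%. After thinning the shares were 6.62% (5.76 to 7.57) and 1.40% (1.08 to 1.78).

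Klf2 was lower in cells of every depth class, and the ratio of the deepest class had an interval apart from that of the 2000 to 5000 class only. In cells of 1000 to 2000 UMIs it was at 57.9 CPM in WT and 12.8 CPM in the IRF8KO-labelled library, a log2 ratio of -2.18. In cells of 2000 to 5000 UMIs it was at 42.8 and 7.89 CPM, a log2 ratio of -2.44 (-2.80 to -2.09). In cells of 5000 to 7000 UMIs it was at 44.6 and 8.95 CPM, a log2 ratio of -2.32. In cells of 7000 UMIs or more it was at 39.6 and 14.4 CPM, a log2 ratio of -1.46 (-1.86 to -1.08).
Within WT the deepest cells and those of 2000 to 5000 UMIs differed by -0.11 (-0.34 to 0.12) on the log2 scale. Within the IRF8KO-labelled library the deepest cells were higher by 0.87 (0.39 to 1.34). Thinned shares of Klf2 cells were 5.88% (4.92 to 6.95) and 8.41% (6.18 to 11.1) in WT in these classes, and 1.35% (1.01 to 1.77) and 1.64% (0.604 to 3.53) in the IRF8KO-labelled library. The WT share goes against the WT level, so no order by depth is read from it.

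Among the cells with Klf2, its UMIs were spread much alike in the libraries. At least 50% of them lay in 30 of the 123 IRF8KO-labelled Klf2 cells and in 109 of the 440 WT ones, with means of 1.51 and 1.76 UMIs per Klf2 cell. The most in a single cell were 13 and 10. Of its 123 Klf2 cells, 15 had 5 or more UMIs of H2-Aa, H2-Ab1, H2-Eb1 and Ccr2, genes of antigen presentation and of monocyte recruitment. That is 12.2% of Klf2 cells against 0.512% of the 4884 cells without Klf2, and these 15 cells held 39 of the 186 UMIs. No WT Klf2 cell met that mark, but only 5 of the 2864 WT cells without Klf2 did, 0.175%, so no difference is read in WT. In the IRF8KO-labelled library it was met by 4.55% of Fos cells against 0.680% of cells without Fos. It was met there by 3.70% of Egr1 cells against 0.767% of cells without Egr1. The genes and the mark were chosen after values were seen, and a mark of a fixed number of UMIs is met more easily by deep cells.
Without all 40 such cells of the IRF8KO-labelled library and 5 of WT, the Klf2 log2 ratio was -2.39 (-2.65 to -2.13). In cells of 7000 UMIs or more, 24 such cells held 24 of 66 Klf2 UMIs, and the class ratio without them was -1.96 (-2.45 to -1.49). In the 13 thinned cells with 2 or more Klf2 UMIs, Cd74, the MHC class II chaperone, was at 1769 against 65.0 CPM, 27.2-fold (19.7 to 36.8), and Lyz2, a lysozyme, at 10538 against 521 CPM, 20.2-fold (17.8 to 22.8). Emp3, a small membrane protein, was 8.16-fold (4.96 to 12.7) higher. The 46 Cd74, 274 Lyz2 and 20 Emp3 UMIs were not followed cell by cell, so a few of the 13 cells may hold most of them. Fos and Egr1 had no UMI in these 13 cells, where 3 counts would be 115 CPM. The 10.7 and 7.53 CPM of cells without Klf2 could not have been told from 0 there.

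The WT cells with most Klf2 were read the same way. In the 36 thinned WT cells with 2 or more Klf2 UMIs, Emp3 was at 486 against 54.6 CPM, 8.90-fold (6.09 to 12.6), and Tsc22d3, a glucocorticoid-induced gene, at 194 against 47.5 CPM, 4.09-fold (2.21 to 6.98). Cd74 had no UMI in the 36 cells, where 1 UMI is 13.9 CPM, and was at 35.7 CPM in cells without Klf2. No difference is read from so few counts. Lyz2 was 1.99-fold (1.36 to 2.81) higher in the 36 cells. Of the members, Egr1 was at 194 against 6.56 CPM on 14 UMIs, which came from few cells. Before thinning, 1 WT cell of 3413 UMIs held 15 Egr1 and 6 Klf2 UMIs, and 6 of the 8 WT cells with most Klf2 had no Egr1. Klf6 was at 333 against 184 CPM, 1.81-fold (1.15 to 2.71). Jun was at 194 against 303 CPM, 0.642-fold with an interval (0.350 to 1.08) that includes no difference. Emp3 was thus above background in the Klf2 cells of both libraries. The difference between the libraries in these folds was not tested.

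Klf4 (chr4:55527143-55532466, - strand), which together with Klf2 is known for roles in monocytes and vessels, went the other way from Klf2. It was at 6.31 CPM in WT (117 UMIs) and 11.9 CPM in the IRF8KO-labelled library (225 UMIs), a log2 ratio of 0.91 (0.58 to 1.24). Equal weight gave 1.15. The ratio was 1.08 (0.53 to 1.66) in cells of 2000 to 5000 UMIs and 0.84 (0.33 to 1.34) in cells of 7000 or more. Its UMIs were mostly single, in 103 WT cells and 188 of the others, with at most 2 and 4 UMIs in a cell. Thinned shares were 1.06% (0.726 to 1.49) and 2.11% (1.71 to 2.57).

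Klf6 (chr13:5861482-5870394, + strand), a broadly expressed injury-response factor, was at 212 CPM in WT and 190.4 CPM in the IRF8KO-labelled library, a log2 ratio of -0.16 (-0.22 to -0.09) that became 0.10 under TMM scaling. It was higher in the deepest cells than in those of 2000 to 5000 UMIs in both libraries, by 0.26 (0.16 to 0.36) in WT and 0.32 (0.21 to 0.43) in the other on the log2 scale. Thinned shares of cells were 30.5% and 29.5%. In cells of 1000 to 2000 UMIs it was at 253 and 259.7 CPM, so its level did not simply follow depth in either library.

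The genes around these factors were read from 8 lists, whose members were chosen with earlier results of these data known. The AP-1 and bZIP partners had 18 of 22 genes at 10 CPM or more, 3 of them 2-fold or more higher (5.61% of all genes) and 2 lower (9.28%), with a median of -0.09 that became 0.16 under TMM scaling. Batf3, a partner of IRF proteins in dendritic cells, was at 48.5 CPM in WT and 1.63 CPM in the IRF8KO-labelled library, a log2 ratio of -4.89 (-5.46 to -4.38). Creb5 and Atf5 were higher, by 2.68 (2.37 to 3.00) and 1.33 (1.05 to 1.61). Of the Egr family and its co-repressors only Nab1 and Nab2 reached 10 CPM, with ratios of 0.73 (0.57 to 0.88) and -0.50 (-0.71 to -0.30).
The other Klf and Sp factors had 9 of 16 genes at that level and a median of -0.41. Klf10, induced by TGF-beta, was at 5.77 and 21.3 CPM, a log2 ratio of 1.89 (1.58 to 2.21), while Klf7 and Klf3 were lower, at -0.92 and -0.89. Of the upstream kinases and factors, such as MAP kinases, Srf and the Mef2 genes, 24 of 25 reached 10 CPM, 2 were higher and 22 lower, and none passed 2-fold. Of all genes 25.1% were higher. Their median was -0.47, against -0.28 for all genes. Under TMM scaling 6 of the 24 were higher, with a median of -0.21 against -0.02 for all genes. The share of all genes higher under that scaling was not computed. The largest ratios were those of Map2k6 at -0.99, Mapk7 at -0.92 and Mkl1 at -0.91.

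The other early response and feedback genes had 22 of 33 members at 10 CPM or more, 5 of them 2-fold or more higher (5.61% of all genes) and 3 lower (9.28%). Their median of -0.09 became 0.17 under TMM scaling. Ier3 was at 9.01 and 45.4 CPM, a log2 ratio of 2.33 (2.09 to 2.58), Rgs1, which dampens chemokine receptor signals, at 22.8 and 108 CPM, 2.24 (2.09 to 2.40), and Ier2 at 14.5 and 49.4 CPM, 1.77 (1.57 to 1.97). Heat shock genes, a group that responds to stress of the cell, had 8 of 10 members at that level, and all 8 were lower, led by Hsph1 at -1.09 (-1.27 to -0.91), Dnajb1 at -0.69 and Hsp90aa1 at -0.67. Their median was -0.54, beside -0.28 for all genes, of which 25.1% were higher at any size. Under TMM scaling 6 of these 8 were lower, with a median of -0.29 against -0.02 for all genes. The share of all genes lower under that scaling was not computed.
The activation cytokines and chemokines had 10 of 10 at that level, 4 of them 2-fold or more higher (5.61% of all genes) and 1 lower (9.28%). Cxcl2, a neutrophil-attracting chemokine, had 0 UMIs in WT and 958 in the IRF8KO-labelled library. With the 0 set to 3 counts over the group it was 312-fold higher, a log2 ratio of 8.29 with a lower bound of 7.98. Cxcl10 and Il1b were higher by 2.86 (2.53 to 3.20) and 2.54 (2.19 to 2.92), and the gene lower was Il1a, at -2.24 (-2.42 to -2.08), named after its value was seen. The size for Cxcl10 depended on weighting and depth. It was 4.55 with equal weight per cell, 6.22 in cells of 2000 to 5000 UMIs and 2.58 in cells of 7000 or more. Of 5 genes linked to Klf2 in other cells only S1pr1, a lipid receptor, reached 10 CPM. It was at 21.0 and 43.4 CPM, a log2 ratio of 1.05 (0.87 to 1.23).

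**Figure D5:**
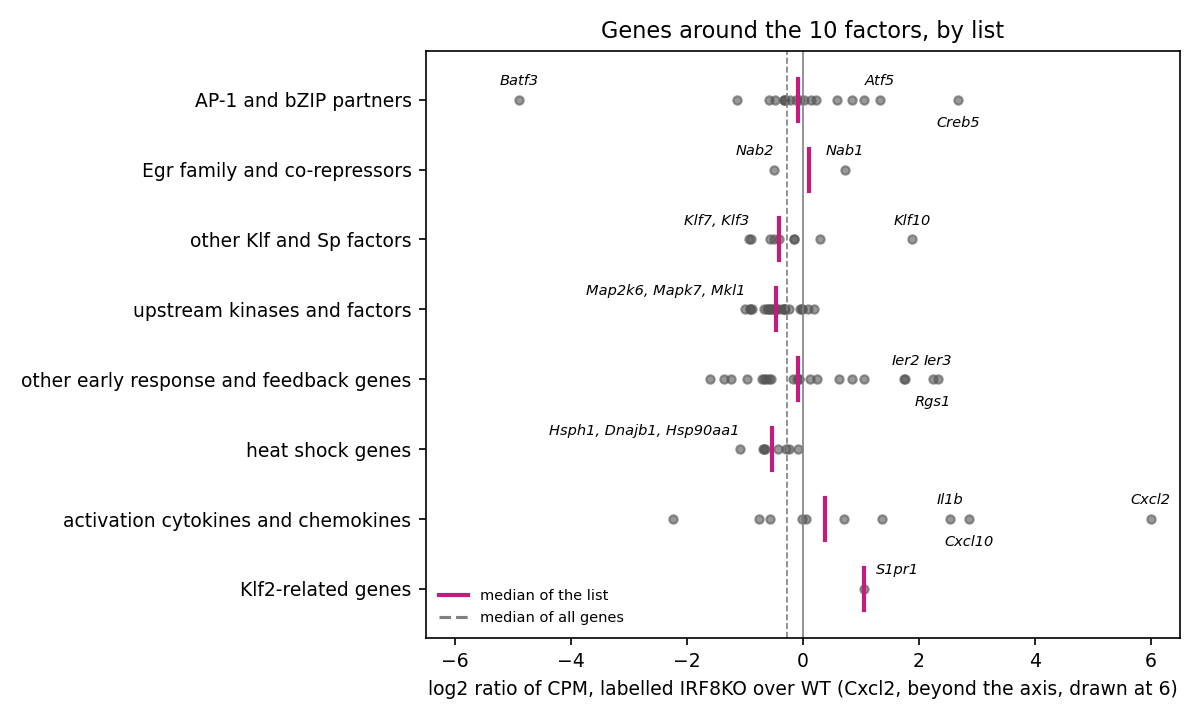
Log2 ratio of CPM, IRF8KO-labelled library over WT, of each gene that reached 10 CPM in either library, 1 row of points per list. Pink bars are list medians and the dashed line the median of all genes at -0.28; most upstream kinases and heat shock genes lie left of 0, where TMM scaling moves every point to the right by 0.25, and Batf3, Creb5 and Cxcl2 (drawn at the edge) lie far out.

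The genes whose levels followed Fos most closely were sought over 20 points, 10 bins of cells by depth in each library. Pearson r of log2(CPM + 1) was 0.83 for Eif3m, 0.80 for Mrpl33, 0.79 for H2-D1, 0.75 for Rpl10-ps3, a ribosomal protein pseudogene, and 0.74 for Mt1. For Klf2 it was 0.96 for Akr1b10 and Yes1, 0.96 for 3222401L13Rik and Mark3, and 0.95 for Tpst2. Points of a library share its cells, depth order and base composition, so these values describe 2 libraries. Within the 10 bins of the IRF8KO-labelled library, Eif3m had an r of 0.16 with Fos and the other 4 genes like Fos had 0.64 to 0.78, while Eif3m had 0.83 within WT. WT Fos was at 30.3 CPM in the shallowest bin, on 17 UMIs, and at most 5.47 CPM in the other WT bins. In that bin lie the 2 WT Fos cells with neuronal markers, which held 15 of the UMIs. That bin was also the highest Fos point of all 20, above the 18.3 CPM of the highest bin of the IRF8KO-labelled library. The values of r over the 20 points, by which these genes were picked, and those within WT depend on that bin. Values of r without it were not computed. The 5 genes like Klf2 had 0.71 to 0.86 within the IRF8KO-labelled bins.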

How the data were processed

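Cells were isolated, sorted and run as 10x droplet libraries, 1 per group, per the labels' protocols, which also name a full-length kit, not a droplet method. The authors deposited whole-number UMI counts per gene and barcode. Software version 3.1.0 is named in the file headers, and the submitters' processing notes name Cell Ranger 3.1 and mm10. Barcodes and feature names were read as given, and positions came from GENCODE M21 by gene identifier.

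UMIs of kept cells were summed and divided by the library's total to give CPM. Values with equal weight per cell are means of each cell's own CPM. Intervals are exact 95% ones: Poisson for CPM, conditional binomial for ratios and Clopper-Pearson for shares. UMIs that came from 1 cell are not independent, so spread between cells and animals is not covered. A count of 0 was set to 3 counts over the group. Thinning drew 2000 UMIs per cell without replacement. No doublet caller was used, and an alternative left out the cells of highest total.

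The members and lists were chosen with earlier results of these data known. Named genes are all members, Irf8, 3 genes per list by absolute ratio, 5 genes most like Fos and 5 most like Klf2 among genes of at least 50 CPM, and the 8 highest folds in cells with 2 or more Fos UMIs. The same rule for Klf2 and Egr1 cells was added later, and of those only some are named. The labels give the groups by title. Tools were Python 3.11.15, numpy 2.4.6, scipy 1.17.1, pandas 2.3.3 and matplotlib 3.10.9, with edgeR 4.0.16 in R 4.3.3 for TMM factors only. The intervals were run on simulated Poisson counts, which is the model they assume. That run does not show how they hold for UMIs clumped in few cells. Alternatives changed the scaling, weight, depth, cell filter, neutrophil cut, pseudocount and class bounds. Those without cells of few microglia markers, of MHC class II and Ccr2 UMIs, or without shallow WT cells were chosen after seeing the data.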

Additional observations from a re-analysis of the deposited data

Results flagged for a closer look

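Klf2 in cells outside the comparison stood above its level in WT. In the 98 neutrophil-rich cells set apart from the IRF8KO-labelled library, Klf2 was at 75.9 CPM (58.5 to 97.0), on 64 UMIs in 42 cells. The kept WT cells had 41.7 CPM and the kept cells of the same library 9.80 CPM. The same 98 cells had Jun at 55.8 CPM and Junb at 32.0 CPM, under the 308 and 202 CPM of kept cells of their library. Their median depth was 7057.5 UMIs and the 6 genes that set them apart took 39.0% of their UMIs.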

How the results depend on the processing

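Each result was recomputed under up to 14 alternatives. No paired analysis was possible because each group has 1 library and the labels give no replicate numbers, and no replicate could be left out. Fos was higher in all 14, from 0.96 to 2.99 on the log2 scale, and Klf2 lower in all 14, from -2.39 to -1.73. Fos moved beyond its counting interval to 0.96 with equal weight per cell and 1.09 with the same mix of depth classes, and to 2.99 after thinning, 2.94 with the stricter cell filter, 2.87 without cells of under 10 microglia marker UMIs and 2.94 without WT cells of 1000 to 2000 UMIs. Klf2 moved to -1.84 under TMM scaling, -1.73 with no neutrophil cut and -2.39 without cells of 5 or more MHC class II and Ccr2 UMIs. TMM scaling raised the number of higher members from 3 to 5, turned their median from -0.24 to 0.016 and turned Klf6 from -0.16 to 0.098. It also moved the median of all genes from -0.28 to -0.02. With class bounds of 2000 to 4000 UMIs, Fos was at 3.35 in place of 2.38. The share of cells with a Fos UMI was 0.424% in WT and 3.08% in the IRF8KO-labelled library without thinning, and 1.24% in the latter at 1000 UMIs. The scaling alternatives multiply all genes alike. Fosb, on 5 UMIs per library, ran from -1.71 to 1.38. For the other moves the cause was not tested. Depth limits WT Fos, on 45 UMIs in 14 cells, and Fosb.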
